A study of Mus musculus with 11 samples.

Results

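A set of 478 stretches of mouse esophageal chromatin, lying at the ends of protein-coding genes, was open in one genotype and closed in the other when K5SmoM2 cells were set against wild-type (WT) cells. Lists of open intervals from 11 ATAC-seq libraries, made with a transposase that inserts adapters where DNA is accessible, were merged into 124941 regions, and 17044 of these lay within 1 kb of either end of a protein-coding gene. A region was called open in a library where an interval of that library's list overlapped it. The regions described here were chosen by occupancy in K5SmoM2 and WT: of the 17044 gene-end regions, 291 were open in 3 of 3 K5SmoM2 and 0 of 3 WT libraries (gained) and 187 were open in 0 of 3 K5SmoM2 and 3 of 3 WT libraries (lost). These are 1.71% and 1.1% of gene-end regions, and since this contrast chose the regions, nothing is read from either share and no test is given for it.

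The K5SmoM2 group (3 libraries, strain CD1) had the genotype Krt5-SmoM2 and was sorted for high EpCAM, an epithelial adhesion protein. The K5SmoM2Sox9cKO group (3 libraries, strain not given in the labels) had the genotype Krt5-SmoM2-Sox9fl/fl and was also sorted for high EpCAM. The Embryo group (2 libraries) was esophagus of embryonic day 13 with the genotype Krt8YFP, sorted on YFP. The WT group (3 libraries, strain CD1) was sorted for low EpCAM. The tissue of every adult library is labelled esophagus, and the age of the adult animals, how the transgene was switched on and the share of cells recombined are not given in the labels. Because the gate was low in WT and high in both SmoM2 groups, genotype and gate cannot be told apart in any comparison with WT.

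SmoM2 is a mutant of Smoothened, the membrane protein that turns on Hedgehog signaling, and is active without ligand. The genotype name ties it to Krt5, a keratin of basal epithelial cells. Hedgehog signaling ends in Gli transcription factors, and Sox9 is a transcription factor of many progenitor cells and of Hedgehog-driven epithelial tumors. Open chromatin at a gene start usually marks the promoter, where transcription begins. Promoters rich in CpG dinucleotides tend to be open in most tissues, whereas CpG-poor promoters tend to be open in fewer cell types. Open chromatin just beyond the far end of a gene can be a regulatory element of that gene or of a neighbour.

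The promoters of 8 genes under switching regions are shown, 4 gained and 4 lost, because most of the results below return to them. Each is the 300-base RefSeq window of GRCm38.p6, with 250 bases before and 50 after a listed start, 5′ to 3′ on the gene's strand. Capitals mark matches to 9 short motifs that were searched on both strands. The core of Gli factor sites was searched as ACCACCC and that shared by Sox factors as ACAANG. The site of Fos and Jun dimers was searched as TGANTCA and that of Tead factors as GGAATG. The TATA box was searched as TATAAA, the GC box of Sp and Klf factors as GGGCGG and the site of NF-Y as CCAAT. Forkhead sites were searched as TGTTTAC and homeodomain cores as TAATTA. No motif contains another, though matches can share bases, and a match is a description of the sequence, not a bound site. The gained promoters were those of Kit (chr5:75574737-75575036, plus strand), the tyrosine kinase receptor for stem cell factor, Krt20 (chr11:99438104-99438403, minus), a keratin of intestinal and Merkel cells, Pdgfd (chr9:6168236-6168535, plus), a platelet-derived growth factor ligand, and Cd34 (chr1:194938571-194938870, plus), a sialomucin that marks stem cells of the mouse hair follicle.
Kit: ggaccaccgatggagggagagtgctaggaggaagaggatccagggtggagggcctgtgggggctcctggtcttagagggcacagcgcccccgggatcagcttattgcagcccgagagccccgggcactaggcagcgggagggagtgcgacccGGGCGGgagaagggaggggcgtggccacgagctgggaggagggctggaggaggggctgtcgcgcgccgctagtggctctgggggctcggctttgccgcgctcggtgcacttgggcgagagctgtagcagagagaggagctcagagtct
Krt20: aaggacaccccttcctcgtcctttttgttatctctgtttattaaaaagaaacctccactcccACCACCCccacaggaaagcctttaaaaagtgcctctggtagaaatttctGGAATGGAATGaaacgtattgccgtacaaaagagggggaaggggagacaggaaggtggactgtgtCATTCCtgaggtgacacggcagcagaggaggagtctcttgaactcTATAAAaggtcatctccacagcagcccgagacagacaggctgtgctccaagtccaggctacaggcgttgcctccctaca
Pdgfd: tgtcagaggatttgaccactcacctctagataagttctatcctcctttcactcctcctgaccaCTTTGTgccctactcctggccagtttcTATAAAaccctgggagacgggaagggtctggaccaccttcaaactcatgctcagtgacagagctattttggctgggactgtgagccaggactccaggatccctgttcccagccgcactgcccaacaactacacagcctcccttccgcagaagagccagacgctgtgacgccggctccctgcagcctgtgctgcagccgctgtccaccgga
Cd34: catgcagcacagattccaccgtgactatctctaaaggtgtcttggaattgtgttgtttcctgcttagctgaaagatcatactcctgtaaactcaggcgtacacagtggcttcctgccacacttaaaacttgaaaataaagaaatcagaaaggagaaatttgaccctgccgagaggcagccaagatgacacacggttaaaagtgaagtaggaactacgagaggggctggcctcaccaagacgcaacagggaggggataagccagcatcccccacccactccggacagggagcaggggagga
The lost promoters were those of Hoxd1 (chr2:74762730-74763029, plus), a homeobox transcription factor, Car9 (chr4:43506776-43507075, plus), a carbonic anhydrase of the cell surface, Egf (chr3:129755273-129755572, minus), the ligand of the epidermal growth factor receptor, and Tnf (chr17:35201958-35202257, minus), an inflammatory cytokine. Hoxd1 and Tnf were chosen after their values were seen.
Hoxd1: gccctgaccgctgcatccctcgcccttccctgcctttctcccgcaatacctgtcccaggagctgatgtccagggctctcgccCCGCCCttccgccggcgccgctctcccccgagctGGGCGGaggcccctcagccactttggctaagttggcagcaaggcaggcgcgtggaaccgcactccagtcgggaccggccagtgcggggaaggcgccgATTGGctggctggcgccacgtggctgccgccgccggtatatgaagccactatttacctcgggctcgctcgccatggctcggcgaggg
Car9: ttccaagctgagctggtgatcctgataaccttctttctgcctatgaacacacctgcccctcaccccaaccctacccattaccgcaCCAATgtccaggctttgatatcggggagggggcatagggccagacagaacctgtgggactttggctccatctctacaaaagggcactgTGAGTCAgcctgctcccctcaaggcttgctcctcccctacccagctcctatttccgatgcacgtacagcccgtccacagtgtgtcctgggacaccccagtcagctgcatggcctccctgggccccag
Egf: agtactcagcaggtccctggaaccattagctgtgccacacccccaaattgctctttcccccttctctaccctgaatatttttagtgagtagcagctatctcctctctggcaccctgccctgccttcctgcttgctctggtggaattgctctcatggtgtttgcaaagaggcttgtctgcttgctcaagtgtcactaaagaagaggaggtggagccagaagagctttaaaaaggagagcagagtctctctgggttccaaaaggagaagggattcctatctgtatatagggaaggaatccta
Tnf: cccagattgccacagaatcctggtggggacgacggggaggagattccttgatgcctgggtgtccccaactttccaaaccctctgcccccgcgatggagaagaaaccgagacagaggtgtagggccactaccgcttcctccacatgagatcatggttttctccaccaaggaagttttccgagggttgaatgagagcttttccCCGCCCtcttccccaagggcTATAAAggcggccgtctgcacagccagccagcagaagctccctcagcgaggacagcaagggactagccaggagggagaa
The Kit window held 20 CpG and 1 GGGCGG, whose first base lay at -98 from the start. The Krt20 window held 6 CpG, an ACCACCC at -188, a pair of GGAATG that share a base at -139 and -134, its reverse complement at -74 and a TATAAA at -29. The Egf window held 0 CpG and, like that of Cd34 with 7, none of the 9 motifs. The Car9 window held TGAGTCA at -77 and CCAAT at -165, and the Hoxd1 window, with 29 CpG, held GC boxes at -168 and -134 and a reverse CCAAT at -37. The Pdgfd window held a reverse ACAANG at -187 and TATAAA at -160, and the Tnf window a reverse GC box at -49 and TATAAA at -29.

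The switching regions ranked below most open gene-end regions of their lists, as did switching regions elsewhere. The fold enrichment printed here is the authors' value for each interval, made by the peak caller, and its percentile ranks the interval's p-value within its own list, with 0 the lowest p-value. The median percentile of gained regions was 59.8, 71.0 and 60.0 in the 3 K5SmoM2 libraries, and that of lost regions was 75.6, 72.3 and 70.0 in the 3 WT libraries. Gene-end regions open in 3 of 3 libraries of both groups (12358 regions) lay between 13.8 and 25.2 in those same 6 libraries. Away from gene ends, gained regions had medians of 57.4, 67.1 and 58.0 in K5SmoM2 and lost regions 71.9, 67.4 and 67.4 in WT, and all regions together lay between 48.6 and 48.9. The median width was 731 bp for gained and 751 bp for lost regions, against 1387 bp for gene-end regions open in both groups. It was 693 bp for gained and 682 bp for lost regions elsewhere and 693 bp over all regions. Signal below the peak caller's threshold does not appear in these lists, and their depth is unknown.

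The distance limit was met closely by Cd40 (999 bp, lost), Entpd6 (998 bp, gained), Kcns3 (996 bp, gained) and Ankrd9 (995 bp, gained). Just beyond it lay Dab2ip (1005 bp, lost), Gm52363 (1010 bp, gained), Lrrc75b (1012 bp, gained) and Rnf157 (1014 bp, lost). On the occupancy rule, 198 gene-end regions were open in 3 K5SmoM2 and 1 WT library and 213 in 2 K5SmoM2 and 0 WT libraries. Another 177 were open in 1 K5SmoM2 and 3 WT libraries and 267 in 0 K5SmoM2 and 2 WT libraries.

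By nearest end, the 478 regions belonged to 462 genes, 279 with a gained and 185 with a lost region, 2 of them with both. Gained regions were spread over 20 chromosomes and numbered 13 on X; lost regions numbered 2 on X. Where RefSeq lists the strand, 96 gained regions lay nearest the start side of the gene body, which can lie away from a listed start, and 128 nearest the far end, and 67 had no strand listed. Among lost regions 77 lay nearest the start and 64 nearest the far end, with 46 unlisted. Gene-end regions open in both groups lay nearest a start in 90.4% of cases. The far-end share was thus higher among switching regions; this is a description, since regions share genes and libraries.

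Most switching regions did not coincide with the switching of their gene's own start. Of 177 gained regions that did not cover a listed start of their own gene, 115 (65.0%) had that start open in all 9 adult libraries and 46 had it open in none. Of 107 such lost regions, 63 (58.9%) had it open in all 9 and 34 in none. Only 47 gained and 34 lost regions covered a listed start of their gene, and in 41 and 30 of them no other listed start of that gene was open in an adult library. For a gene with only 1 listed start, as most of these were, this holds by construction. Among start-covering gained regions at genes with more listed starts, Adra1b, Cdyl, Bcar1, Ptprr, Frrs1 and Atp2c1 had another start open. Kit and Coro6 did not. The nearest region open in all 3 libraries of the opposite group lay within 500 bp of 25 gained regions (8.59%) and 20 lost regions (10.7%), with median distances of 7018 bp and 8239 bp.

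The regions that cover their gene's start included genes of many tissues. Kit was the clearest: its region (chr5:75574453-75576329), over the promoter shown above, had a fold enrichment of 7.33, 5.25 and 6.99 in K5SmoM2 and 4.98, 8.74 and 4.46 in K5SmoM2Sox9cKO, 6.25 and 3.16 in Embryo, and no interval in any WT library. It was thus open in all 8 libraries other than WT. The Krt20 region (chr11:99437978-99438752) had 3.70, 4.93 and 6.02 in K5SmoM2, 2.76 and 3.27 in K5SmoM2Sox9cKO replicates 1 and 3 with no interval in replicate 2, and 4.18 and 3.29 in Embryo. The start of Chrm3, a muscarinic acetylcholine receptor (chr13:10359410-10361276), had 5.27, 5.89 and 7.31 in K5SmoM2, 4.42 and 3.63 in K5SmoM2Sox9cKO replicates 1 and 2, and 3.06 and 3.19 in Embryo. Kit, Krt20 and Chrm3 were the 3 start-covering gained regions that were open in both Embryo libraries.

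The Pdgfd region (chr9:6168284-6169668) followed another pattern. It had a fold enrichment of 9.48, 6.61 and 7.81 in K5SmoM2, no interval in any K5SmoM2Sox9cKO or WT library, and 3.44 in Embryo replicate 1. Among start-covering gained regions, those of Pdgfd, Esp1 and Defb6 were closed in all 3 K5SmoM2Sox9cKO libraries. The Cd34 region (chr1:194938521-194939537) had 9.57, 4.93 and 6.89 in K5SmoM2 and 8.29, 6.35 and 6.25 in K5SmoM2Sox9cKO, with no interval in Embryo or WT. The start of Nid1, which encodes the basement membrane protein nidogen (chr13:13437460-13439037), had 5.47, 4.40 and 5.68 in K5SmoM2 and 3.87, 4.84 and 2.68 in K5SmoM2Sox9cKO. Both genes were thus open in all 6 SmoM2 libraries. Lmod2, a nucleator of muscle actin filaments, Adra1b, an adrenergic receptor, and Pou2af1, a B-cell coactivator, held 3 of the 10 best-ranked gained regions, and all 3 regions covered the start. The Adra1b region (chr11:43900719-43901832) had 13.05, 9.64 and 12.75 in K5SmoM2 and 8.47 and 13.19 in K5SmoM2Sox9cKO replicates 2 and 3, and another listed start of this gene was open in all 9 adult libraries.

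Among lost regions over starts, Hoxd1 (chr2:74762593-74763543) had a fold enrichment of 4.42, 6.05 and 3.27 in K5SmoM2Sox9cKO, 3.35 in Embryo replicate 1 and 5.39, 5.69 and 6.83 in WT. Car9 was lost at both ends: its start (chr4:43506648-43507228) had 3.23, 2.15 and 3.27 in K5SmoM2Sox9cKO and 3.72, 4.40 and 4.03 in WT. Its far end was open in 2 of 3 K5SmoM2Sox9cKO and 3 of 3 WT libraries. Both starts were thus open in all 3 K5SmoM2Sox9cKO libraries, as in WT. Grm6, a glutamate receptor of retinal bipolar cells (chr11:50849640-50851547), was open in 3 of 3 K5SmoM2Sox9cKO, both Embryo and all WT libraries. Epb41l3, a band 4.1 protein of the membrane skeleton (chr17:69075436-69076628), had 4.64 and 3.29 in Embryo and 4.76, 5.08 and 4.42 in WT, with no interval in any of the 6 SmoM2 libraries. Another listed start of Epb41l3 (chr17:69156504-69157951) was open in 3 of 3 K5SmoM2Sox9cKO, 3 of 3 K5SmoM2 and 2 of 3 WT libraries. The Egf start (chr3:129754720-129755549) had 3.27 in K5SmoM2Sox9cKO replicate 3 and 3.86 in Embryo replicate 1, against 4.03, 4.81 and 3.04 in WT, and the Tnf start (chr17:35201846-35202291) had 3.08 in K5SmoM2Sox9cKO replicate 1, against 4.76, 3.74 and 3.70 in WT. Another listed start of Egf was open in all 9 adult libraries.

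**Figure D1:**
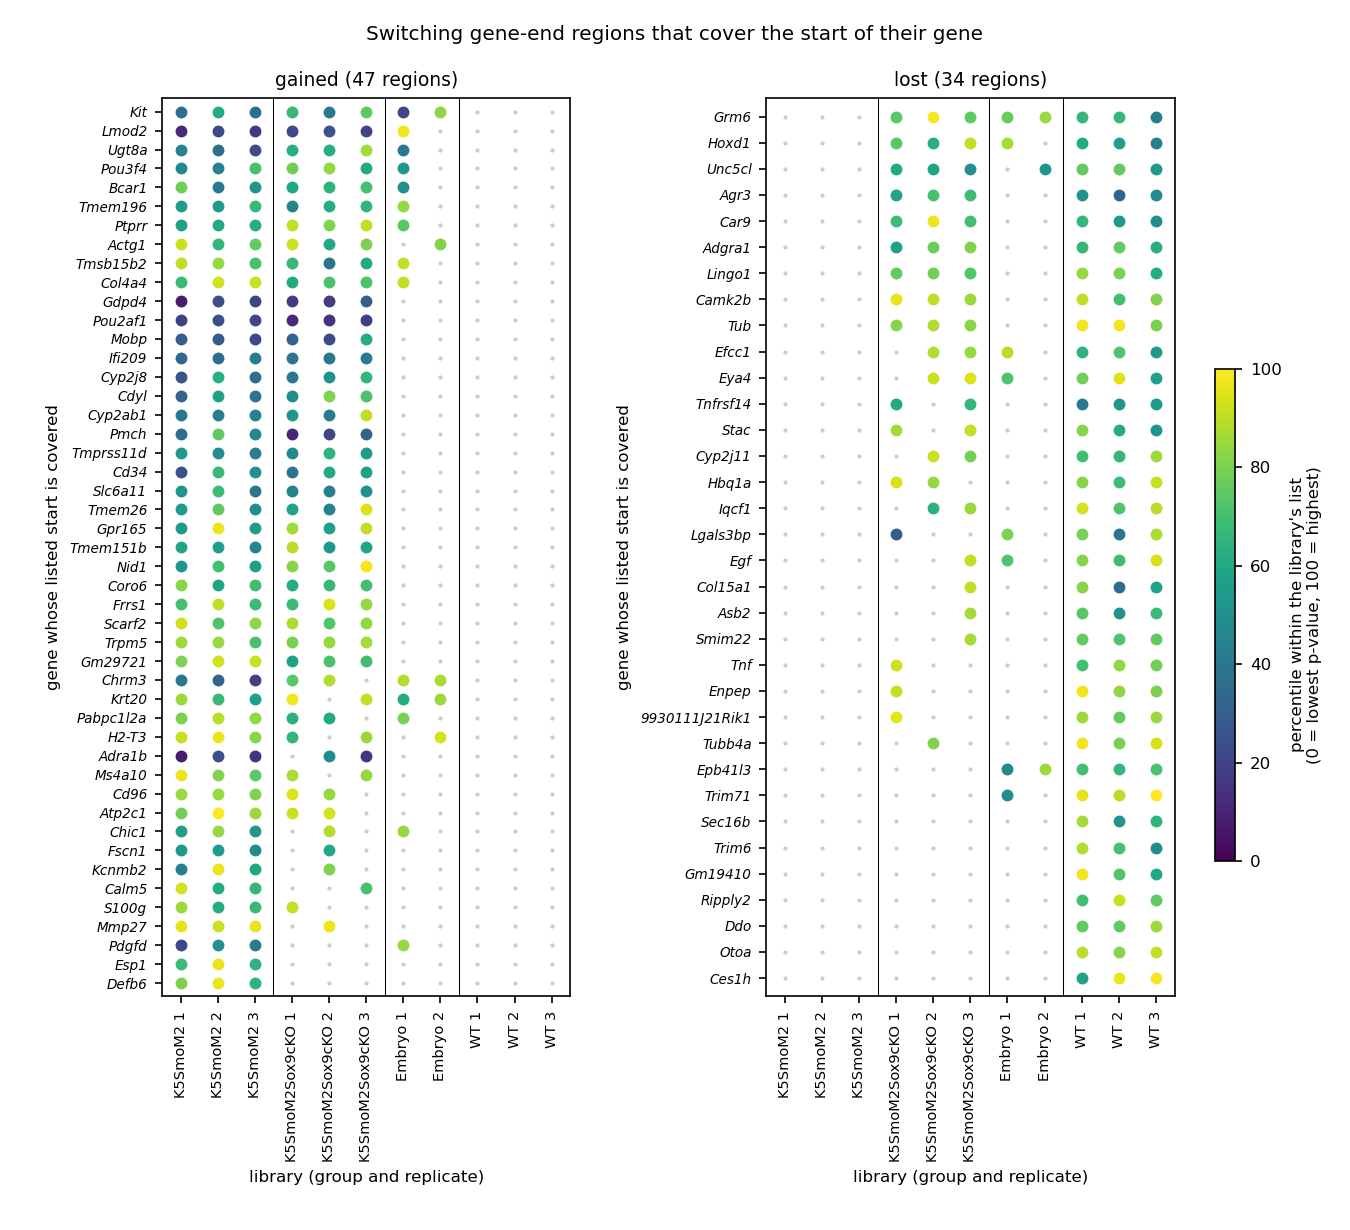
Each row is a region that covers a listed start of its gene (47 gained, left; 34 lost, right) and each column a library, grouped as K5SmoM2, K5SmoM2Sox9cKO, Embryo and WT; a coloured point marks an interval in that library, with colour giving its percentile within the library's list, and a grey dot marks none. The K5SmoM2 and WT columns are filled or empty because the rule chose them so, while the 5 other columns were not used; 30 gained rows are filled in all 3 K5SmoM2Sox9cKO columns, against 9 lost rows.

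Several genes held more than one switching region, 15 in all. Tmem26 had a gained region at each end, both open in 3 of 3 K5SmoM2Sox9cKO libraries. Ugt8a, which makes the galactolipid of myelin, also had one at each end: the start was open in 3 of 3 K5SmoM2Sox9cKO libraries, and the far end (chr3:125865294-125866222; 8.01, 9.18 and 9.81 in K5SmoM2) in none. Stac had a lost region at each end. Ercc6l2, a helicase of DNA repair, had 3 gained regions. Pairs of gained regions lay at Dsg2, a desmosomal cadherin, Upk1b, a uroplakin of the bladder lining, Pi15, Crispld1, Itpripl1, Tm4sf4, Mmp27 and P2ry13, a purine receptor. 24 switching regions lay near ends of 2 or more genes, among them 1 gained region at the shared far end of 9 Ugt1a genes and 1 gained region between Col4a3 and Col4a4, chains of basement membrane collagen, so these cannot be assigned to 1 gene.

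The best-ranked regions lay at starts and far ends alike. The leading gained regions lay at the far ends of Tmtc4 (chr14:122919836-122920642; fold enrichment 15.21, 11.66 and 14.63 in K5SmoM2, and 11.06, 15.85 and 9.82 in K5SmoM2Sox9cKO) and Uqcc1, an assembly factor of a respiratory complex (chr2:155846758-155847667). The rest of the first 10 were at Adra1b, Cyp2c66, Lmod2, Vmn1r43, Dtwd1, P2ry13, Gdpd4 and Pou2af1. The leading lost region lay at the far end of Zscan21, a zinc finger gene (chr5:138132268-138133609), with 4.42 in K5SmoM2Sox9cKO replicate 1 and 8.98, 8.32 and 7.11 in WT. It was followed by a region at the start-side end of the gene body of Pde7b, a cyclic AMP phosphodiesterase, which did not cover the listed start, by regions at the far end of Cmpk2 and at Rerg, Specc1, Hes3, Hipk3 and Stac, by one just outside the start-side end of Il20, a cytokine of epithelia, and by one at Wbp2. Wbp2 ranked 11, because a gene with a placeholder name, ranked 7, was left out of the naming. The regions of Cmpk2, Rerg, Hipk3 and Il20, and that at the far end of Stac, had no interval in any K5SmoM2Sox9cKO library.

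The K5SmoM2Sox9cKO libraries, which the rule did not use, differed in how they held the 2 sets. Gained regions were open in 77.7%, 74.2% and 53.6% of cases in the 3 libraries (68.5% ± 13, mean ± SD), and lost regions in 37.4%, 26.2% and 37.4% (33.7% ± 6.48). Every library held the larger share of gained regions, and these libraries share their SmoM2 genotype and their gate with K5SmoM2. By region, 140 gained regions (48.1%, Wilson 95% interval 42.4% to 53.8%, counting error only) were open in 3 of 3 K5SmoM2Sox9cKO libraries, 68 in 2, 42 in 1 and 41 in none. Of lost regions, 26 (13.9%, 9.67% to 19.6%) were open in 3 of 3, 35 in 2, 41 in 1 and 85 (45.5%) in none. Without K5SmoM2 replicate 3 in the rule, the share of lost regions open in 3 of 3 was 27.7%. Gained regions were open in fewest cases in replicate 3, which also held 0 intervals at 4 Y-linked genes, against 8 and 10 in replicates 1 and 2; its part in the result was not tested.

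Switching regions away from gene ends gave a comparison in the same libraries. Gained regions elsewhere (8346) were open in 73.2%, 76.4% and 51.4% of cases, and the difference, gene-end minus elsewhere, was 4.47, -2.19 and 2.21 percentage points. Lost regions elsewhere (3700) were open in 29.2%, 16.9% and 24.1% of cases, and the difference was 8.27, 9.31 and 13.3 points (10.3 ± 2.67, mean ± SD, n = 3). Lost gene-end regions were thus open more often than other lost regions in 3 of 3 libraries, with an exact two-sided sign-flip permutation p = 0.25, which is the smallest that 3 libraries allow. For gained regions the same exact test gave p = 0.5. Of all gene-end regions, 86.4%, 83.3% and 83.4% were open in these libraries, against 64.5%, 59.2% and 57.5% of all regions. A higher share at gene ends is thus not particular to lost regions. Among lost regions, 15 of 77 nearest a start (19.5%) and 4 of 64 nearest a far end (6.25%) were open in 3 of 3 K5SmoM2Sox9cKO libraries; this difference was not tested, because regions are not replicates.

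**Figure D2:**
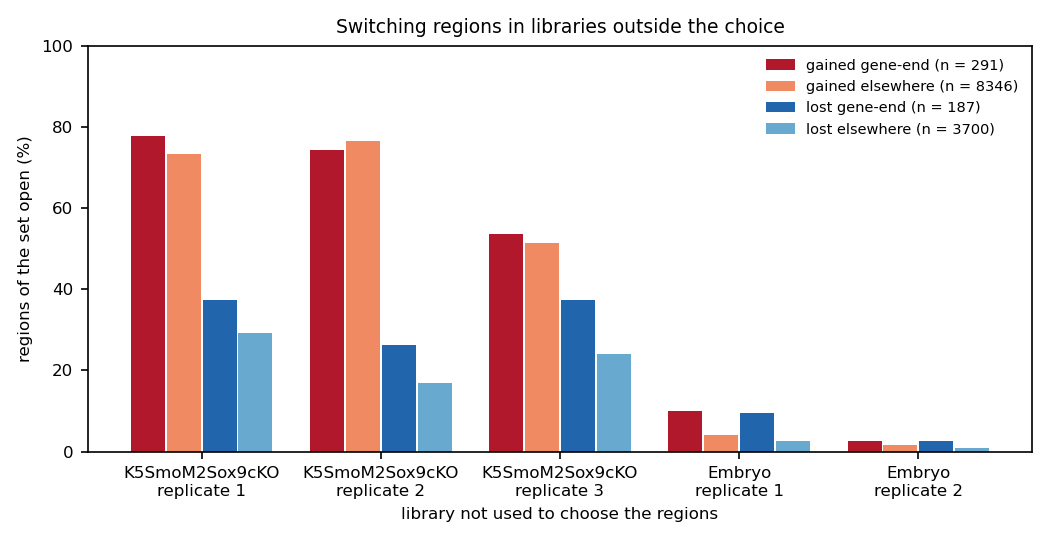
Bars give the percentage of each set of regions that was open in each of the 5 libraries not used to choose them, for gained and lost regions at gene ends and elsewhere. Gained gene-end regions reach 77.7% in K5SmoM2Sox9cKO replicate 1 and 53.6% in replicate 3, and lost gene-end regions stand above lost regions elsewhere in all 3 K5SmoM2Sox9cKO libraries; all 4 sets lie at or below 9.97% in Embryo.

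The Embryo lists were far shorter (24902 and 14255 intervals, against 69026 to 87910 in adult libraries), which limits what they can hold. Gained regions were open in at least 1 Embryo library in 31 cases (10.7%, Wilson 95% interval 7.61% to 14.7%) and lost regions in 19 (10.2%, 6.60% to 15.3%). The same share was 4.58% for gained and 2.92% for lost regions elsewhere, and 80.7% for gene-end regions open in both adult groups. It was 63.8% for all gene-end regions and 21.0% for all regions, so a higher share at gene ends is not particular to switching regions. Regions open in both Embryo libraries included gained ones at Kit, Chrm3, Krt20, Ahnak and Ankrd40 and lost ones at Grm6, Epb41l3, Speer4e and Tnfsf13b. Of the gained regions open in all 3 K5SmoM2Sox9cKO libraries, 20 of 140 were open in Embryo, against 1 of 41 of those open in none, and that 1 was the Pdgfd start. Among lost regions the same counts were 4 of 26 and 4 of 85. Neither difference was tested, and the same split was not made over all gene-end regions, so nothing particular to gained regions is read from it.

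Gene groups were examined for how many members carried a switching region, counting every gene with an end within 1 kb. Over all genes, 15258 had a gene-end region, of which 301 (1.97%) had a gained and 194 (1.27%) a lost one. Of 433 genes in 11 pathway lists, 10 (2.31%) had a gained and 11 (2.54%) a lost region, a difference from all genes that was not tested. None of 27 Hedgehog pathway genes had either, and 22 of them had a gene-end region open in all 9 adult libraries. None of 25 Notch genes had either, with 23 open in all 9. These shares, 81.5% of Hedgehog and 92% of Notch genes, stand beside 12741 of all 15258 genes (83.5%), so nothing particular to either pathway is read from them. In the Wnt list only Ctnnb1, which encodes β-catenin, carried a switching region (far end, gained, fold enrichment 2.34, 2.94 and 2.69 in K5SmoM2) among 58 genes.

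Ligands and receptors of growth factor signaling carried 5 switching regions among 42 genes. Gained were Kit and Pdgfd, described above. Lost were Egf, Fgfr1, a fibroblast growth factor receptor (chr8:25574903-25575351; 3.59 in K5SmoM2Sox9cKO replicate 1 and 4.76, 3.74 and 5.25 in WT), and Pdgfb, another platelet-derived growth factor ligand (chr15:80025339-80026328; 3.09, 2.54 and 2.87 in WT, none in K5SmoM2Sox9cKO). The BMP and TGF-β list had a lost region at the far end of Tgfb2, a TGF-β ligand (chr1:186621941-186622990; 2.81, 3.92 and 4.14 in WT, none in K5SmoM2Sox9cKO). It also had a gained one that lay near both Bmp8b and Ppie. Among transcription factors of epithelia, 67 genes, 1 had a switching region: the far end of Sox5, a Sox family factor, was gained (chr6:143827348-143827947; 4.62, 3.19 and 3.18 in K5SmoM2, none in K5SmoM2Sox9cKO). Sostdc1, a secreted antagonist of BMP and Wnt signaling, was gained (4.12, 3.30 and 3.09 in K5SmoM2, none in K5SmoM2Sox9cKO).

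In the squamous differentiation list 1 of 40 genes had a gained and 2 a lost region, and in the matrix list 2 of 42 had a gained and 4 a lost region; these shares were not tested against those over all genes (1.97% and 1.27%). Krt79 was gained at its far end and open in 3 of 3 K5SmoM2Sox9cKO libraries. Krt4, a keratin of suprabasal esophageal cells, and Sprr1b, a cornified envelope protein, were lost. At Krt4 the lost region (chr15:101923155-101923817) had 2.62 and 2.75 in K5SmoM2Sox9cKO replicates 1 and 3 and 2.73, 3.45 and 3.61 in WT, while every adult library, K5SmoM2 included, held some open region at the ends of Krt4. The gained matrix genes were Col1a1 and Nid1, and the lost ones were Adamts13, Dcn (decorin), Fbn1 (fibrillin) and Loxl1, an enzyme that crosslinks elastin. The lost region of Loxl1 was open in 3 of 3 K5SmoM2Sox9cKO libraries, and those of Fbn1 and Dcn in 1 each. Of 44 cell cycle genes, Cdk6 was lost at its far end.

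Markers checked the tissue label and other cell types. Krt5, Krt14, Sox2, Krt4 and Krt13 had an open gene-end region in all 9 adult libraries; Trp63 had none within 1 kb of its ends in any library. Of other cell types, Ptprc (immune), Pecam1 and Cdh5 (endothelial) and Pdgfra (fibroblast) had none in any library, but other markers of the same types did. Dcn, a fibroblast marker with a lost region, was open at a gene end in 0 K5SmoM2, 2 K5SmoM2Sox9cKO and 3 WT libraries, and Hand2, of enteric neurons, in 1, 0 and 3. Esam (endothelial) was open in 1, 0 and 3, and Twist2 (fibroblast) in 3, 3 and 1. For Cd3e (immune) the numbers were 1, 2 and 0, and for Csf1r (immune) 0, 1 and 0. Kdr, Flt1 and Cldn5 (endothelial) and Myh11, Acta2 and Cnn1 (muscle) were open in all 9. So were Col1a1 (fibroblast), Ret (neural) and Krt8 and Foxa2 (columnar). The part of other cell types in the switching of Dcn, Hand2 and the rest was not tested.

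Gene families were set beside the shares over all genes, 1.97% gained and 1.27% lost. Cytokine, chemokine and tumor necrosis factor family genes had 4 gained (Cxcr5, Il23r, Tnfrsf25 and Tnfsf4) and 7 lost (Il17b, Il18bp, Il1a, Il20, Tnf, Tnfrsf14 and Tnfsf13b) among 117 with a gene-end region, or 3.42% and 5.98%. Cytochrome P450 genes had 5 gained (10.9%) and 2 lost (4.35%) among 46, and chemosensory receptors 4 gained (10.3%) and 1 lost (2.56%) among 39. Solute carriers had 3 gained (1.01%) and 5 lost (1.68%) among 297. Only genes with a gene-end region in some library were counted: 39 of 1506 chemosensory receptors and 46 of 99 cytochrome P450 genes, against 15258 of all 21631 genes. A gene could enter through its switching region alone, which raises the share in families with few such genes. Nothing particular to a family is therefore read from these shares. The families were grouped after the members were seen, and carry no test.

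The promoters under switching regions were poor in CpG. Each region was matched only to the RefSeq window of its nearest listed start. That window was overlapped by 50 gained regions, 37 lost regions and 8499 regions open in both groups. Further windows under a wide region were not counted. The median ratio of observed to expected CpG was 0.36 for gained and 0.384 for lost windows, against 0.781 for those open in both groups and 0.574 over all 21045 windows. It was below 0.5 in 34 of 50 gained windows (68%) and 23 of 37 lost windows (62.2%), against 14.5% of windows open in both groups and 45.1% of all. The windows of Krt20, Pdgfd, Cd34, Egf, Car9 and Tnf shown above were below 0.5, and those of Kit (0.621) and Hoxd1 (0.805) above it. Median GC content was 53.8% and 55% in gained and lost windows and 62% in windows open in both.

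**Figure D3:**
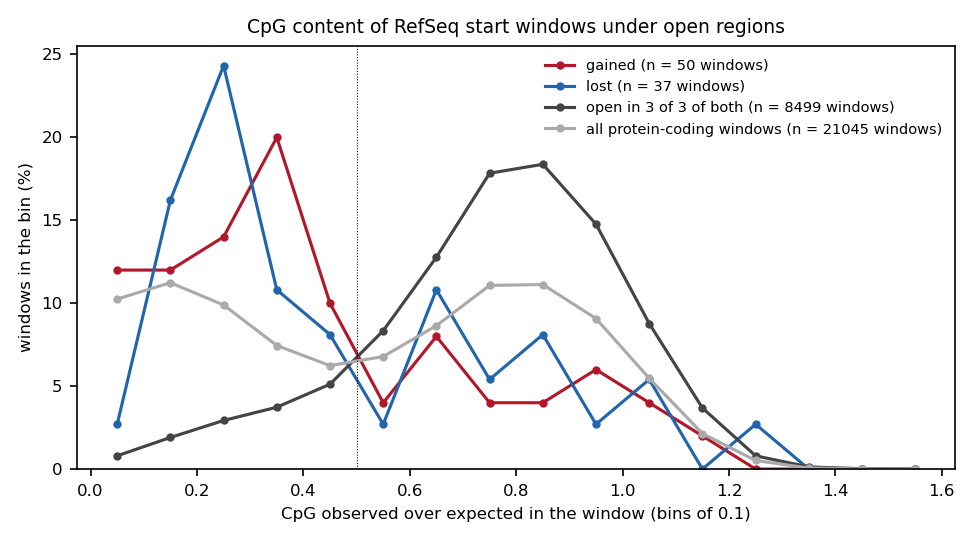
Lines give the percentage of RefSeq start windows in each 0.1-wide bin of observed over expected CpG, for windows under gained regions, lost regions, gene-end regions open in 3 of 3 libraries of both groups, and all windows; the dotted line marks 0.5. Gained and lost windows sit mostly left of it (68% and 62.2%), and windows open in both groups mostly right (14.5% below).

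Short motifs were counted in the same windows. TATAAA was found in 18% of gained and 13.5% of lost windows, against 6.45% of windows open in both groups and 12.7% of all. TGANTCA was found in 14% and 10.8%, against 4.91% and 7.04%. GGGCGG was found in 34% and 37.8%, against 69.9% and 46.7%. The Gli core ACCACCC was found in 2 of 50 gained and 1 of 37 lost windows (4% and 2.70%), against 4.98% of windows open in both groups and 4.62% of all. ACAANG was found in 40% and 32.4%, against 31.1% and 37.8%. These shares describe few windows, and the sets differ in CpG and GC content as given above.

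Whether the neighbourhood of a switching region moved with it was asked with the other open regions of the same locus. The rule did not choose on these regions, but it did use the K5SmoM2 and WT libraries. A comparison with either group therefore shares libraries with the choice and is not independent of it. Regions were given to the closest protein-coding gene within 100 kb, switching gene-end regions were left out of every count, and limma was fitted to the number of open regions at 15448 loci over the 9 adult libraries. A change here is a change in the number of open regions, not in signal or expression. K5SmoM2Sox9cKO was called different from K5SmoM2 at few loci: 53 were higher (0.343%) and 59 lower (0.382%) at an adjusted p under 0.05. In counts simulated with Poisson (counting) spread around the real means, this comparison recovered 4 of 97 loci changed 2-fold and 42 of 100 changed 4-fold. Real counts of open regions can spread less than this, so these shares need not be those of the real fit. A locus without a call is not shown to be unchanged. Of 234 tested loci with a gained region, 0 were higher and 1 was lower, Chrm3. Of 146 with a lost region, 1 was higher, Grin3a, and 0 were lower. Over all loci, unadjusted p fell under 0.05 at 1018 higher and 745 lower loci. The counts over all loci depended on single libraries: without K5SmoM2Sox9cKO replicate 3 they were 8 higher and 19 lower, without K5SmoM2 replicate 1 14 and 19, without K5SmoM2 replicate 2 28 and 21, and without K5SmoM2 replicate 3 94 and 65.

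At Chrm3 the other open regions numbered 1, 1 and 1 in K5SmoM2Sox9cKO, 12, 10 and 15 in K5SmoM2 and 1, 2 and 1 in WT. The K5SmoM2Sox9cKO libraries thus lay with WT, and the log2 change against K5SmoM2 was -3.02 ± 0.19 (SE; limma adjusted p = 0.000404; lower in 3 of 3 libraries). With intervals limited to a −log10 q of at least 5 the adjusted p was 0.124. At Grin3a, a glutamate receptor subunit, counts were 1, 1 and 1 in K5SmoM2Sox9cKO, listed at 0 in all 3 K5SmoM2 libraries and 3, 2 and 3 in WT (limma adjusted p = 0.00584 against K5SmoM2). Where counts are equal within a group, as here, the fit sees almost no spread there, and its p-values can be too small.

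Pdgfd, Ugt8a and Kit, described above, did not pass the threshold in this comparison. Pdgfd had 1, 5 and 0 other open regions in K5SmoM2Sox9cKO, 13, 8 and 10 in K5SmoM2 and 0 in each WT library (limma adjusted p = 0.161 for K5SmoM2Sox9cKO against K5SmoM2, log2 change -2.67 ± 0.68). Ugt8a had 6, 3 and 3 in K5SmoM2Sox9cKO, 12, 12 and 13 in K5SmoM2 and 0, 1 and 1 in WT (limma adjusted p = 0.144, log2 change -1.51 ± 0.37). Kit had 3, 4 and 3 in K5SmoM2Sox9cKO, 8, 5 and 8 in K5SmoM2 and 0 in each WT library, with an adjusted p of 0.087 by limma and a log2 change of -0.89 ± 0.19.

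Against WT, K5SmoM2Sox9cKO had 562 loci higher (3.64%) and 501 lower (3.24%) of 15448; without WT replicate 2, 317 were lower, without WT replicate 3 333 and without K5SmoM2Sox9cKO replicate 2 318. Among loci with a gained region, 30 of 234 were higher (12.8%) and 3 lower (1.28%). Among loci with a lost region, 4 of 146 were higher (2.74%) and 15 lower (10.3%). The WT libraries are the ones in which gained regions were required to be closed and lost regions open, so this comparison shares them with the choice of regions. For K5SmoM2 against WT, the contrast of the rule, 38 and 6 of the loci with a gained region were higher and lower, and 3 and 17 of those with a lost region, against 4.87% higher and 5.33% lower over all loci; nothing is read from these.

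Among the loci with a gained region that were higher, Wdr72, Tmem26 and Kit had no other open region in WT, while Slc6a11 and Cd34 had some. Wdr72, a gene of enamel maturation, had 10, 8 and 6 other open regions in K5SmoM2Sox9cKO, 9, 8 and 11 in K5SmoM2 and 0 in each WT library (limma adjusted p = 3.89e-06 against WT). Tmem26 had 5, 7 and 4, 7, 6 and 7 in K5SmoM2, and 0 in WT (limma adjusted p = 3.2e-05), and Kit passed with a limma adjusted p of 9.18e-05. Slc6a11, a GABA transporter, had 9, 9 and 6 in K5SmoM2Sox9cKO, 6, 5 and 9 in K5SmoM2 and 1 in each WT library (log2 change against WT 2.42 ± 0.18, limma adjusted p = 0.000172). Cd34 had 7, 7 and 6 in K5SmoM2Sox9cKO, 7, 6 and 6 in K5SmoM2 and 3, 3 and 4 in WT (log2 change against WT 0.85 ± 0.13, limma adjusted p = 0.00678). At these 5 loci both SmoM2 groups lay above WT with no overlap. They were named because they were called against WT, and K5SmoM2 against WT is the contrast of the rule. The share of all loci with no such overlap was not counted, so nothing is read from it.

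Among lost regions, Stac had 7, 7 and 6 other open regions in K5SmoM2Sox9cKO, 6, 7 and 6 in K5SmoM2 and 12, 13 and 15 in WT (log2 change against WT -1.01 ± 0.12, limma adjusted p = 0.00206). Tgfb2 had 8, 7 and 6 in K5SmoM2Sox9cKO, 7, 8 and 9 in K5SmoM2 and 13, 14 and 13 in WT (log2 change -0.95 ± 0.10, limma adjusted p = 0.00116). Hand2, a transcription factor of enteric neurons and mesenchyme, had 2, 1 and 2 in K5SmoM2Sox9cKO, 1, 4 and 4 in K5SmoM2 and 7, 8 and 10 in WT (log2 change -2.11 ± 0.40, limma adjusted p = 0.0143). Without scaling by the total of open regions the Hand2 adjusted p was 0.0722. Epb41l3 and Stc1, a secreted stanniocalcin, were also lower. Running the other way, Fosl2, an AP-1 family factor with a lost region at its far end, had 13, 12 and 13 other open regions in K5SmoM2Sox9cKO, 10, 9 and 11 in K5SmoM2 and 8, 9 and 8 in WT (log2 change against WT 0.52 ± 0.08, limma adjusted p = 0.00697). The Fosl2 call held in 14 of 15 alternatives, and its highest limma adjusted p among them was 0.572. At Fosl2 and Gfra2, a lost gene end stood beside more open regions in the rest of the locus in the main fit. Of the calls at loci with a switching region, 1 of 2 against K5SmoM2 and 21 of 52 against WT held under every alternative in which the locus was tested. Among them, Kit, Wdr72, Tmem26, Slc6a11, Cd34, Stac, Tgfb2, Stc1 and Gfra2 were tested in all 15. The call against K5SmoM2, Grin3a, could be tested in only 13. Against WT, Grin3a and Hbq1a were tested in 14 and Gjd4 in 13.

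**Figure D4:**
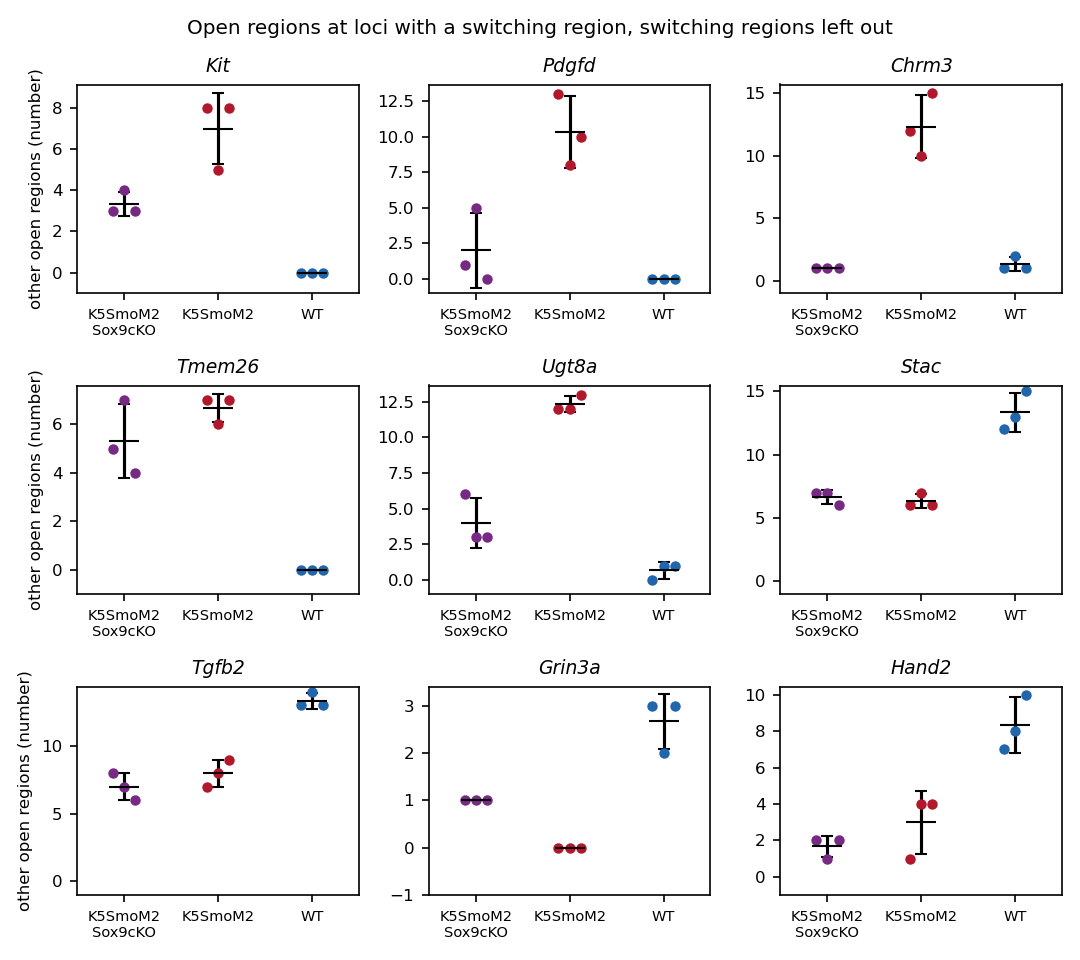
Each panel gives, for a named locus, the number of open regions other than the switching ones in each K5SmoM2Sox9cKO, K5SmoM2 and WT library (points), with the mean (bar) and SD. At Chrm3 the K5SmoM2Sox9cKO libraries have 1 region each, beside 10 to 15 in K5SmoM2; at Stac and Tgfb2 both SmoM2 groups lie below WT.

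Nothing in the labels ties replicates to separate animals, and p-values therefore cover the spread among these libraries, which may be technical. Intervals at 4 Y-linked genes numbered 9 in each K5SmoM2 library, 8, 10 and 0 in K5SmoM2Sox9cKO, 0 in both Embryo libraries and 5, 0 and 0 in WT. The labels give no sex, and sex and group cannot be told apart for regions that differ between the sexes; with autosomes only, 278 gained and 185 lost regions were left.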

How the data were processed

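ATAC-seq was run on sorted esophageal cells, per the labels' protocols. Per the submitters' processing notes, the authors used Trimmomatic, Bowtie2, Picard, MACS2 and deepTools with GRCm38/mm10, with no versions or settings given in the sources used here. One interval list per library was deposited, in 10 columns. The score column was deposited by the authors and not used. Fold enrichment, −log10 p-value, −log10 q-value and summit position were deposited by the authors as MACS2 writes them; fold and −log10 p describe and rank intervals within a list, and −log10 q filters them in an alternative.

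Everything else was computed from these lists. Repeated lines of an interval were merged, chromosomes 1 to 19 and X kept, and lists merged where they shared at least 1 bp. Gene ends came from 21631 protein-coding genes of the GRCm38.p6 RefSeq table, predicted transcripts included, of which 17274 have a listed start in the RefSeq promoter table; that table, the source of the windows, holds no chromosome 18. Coordinates are 1-based. Loci were tested with limma 3.58.1 in R 4.3.3, with the variance trend, on log2((open regions + 0.5) / (total open regions + 1) × 100000), at loci with a mean of at least 1 region, with 3 groups in one fit and Benjamini-Hochberg adjustment over all loci within a comparison. Beside a group at 0, no log2 change is given. Both steps were checked on simulated data. For K5SmoM2Sox9cKO against K5SmoM2, the limma step recovered 4 of 97 loci changed 2-fold and 42 of 100 changed 4-fold, in counts simulated with Poisson spread.

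The regions, gene lists and tests were chosen with earlier results of these data known. Regions were named by rank (10 per direction), pattern (6 each), list membership, 2 or more regions per gene, and the largest called locus changes (6 each); Hoxd1, Tnf and others over listed starts, and the families, were chosen after their values were seen. Same-numbered libraries deviated together with correlations between -0.068 and 0.081, so numbers do not pair samples. Depth is unknown; Wilson intervals cover counting error only. Alternatives covered interval strictness, list length, overlap, union, distance, chromosomes, occupancy, pseudocount, filter, scaling, samples in the fit, replicate block and left-out libraries. Some results that these rules cover are not reported here.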

Additional observations from a re-analysis of the deposited data

Results flagged for a closer look

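Signal appeared in data outside the switching regions: intervals at 4 Y-linked genes, on a chromosome that no comparison used, numbered 9 in K5SmoM2 replicate 1, 9 in replicate 2 and 9 in replicate 3, against 5, 0 and 0 in the WT libraries. Their relation to the switching regions was not tested.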

How the results depend on the processing

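Presence or absence in a list depends on a caller's threshold, and without read numbers no list could be scaled by depth. Leaving out 1 library loosens the rule, so counts then grow by construction: gained regions numbered 291 to 405 and lost ones 187 to 350 (350 without WT replicate 1, 307 without K5SmoM2 replicate 3). The share open in all K5SmoM2Sox9cKO libraries was 40.5% to 67.01% for gained and 11.3% to 27.7% for lost regions (the highest without K5SmoM2Sox9cKO replicate 3 and without K5SmoM2 replicate 3), and the share open in Embryo 10.1% to 17.8% and 8.33% to 14.2%. With a −log10 q of at least 5, lost regions were open in Embryo in 6.38% of cases. With a cover of at least 50% of the region, 302 regions were lost, 9.27% of them were open in 3 of 3 K5SmoM2Sox9cKO libraries, and 7.51% of gained regions were open in Embryo. Within 2 kb of a gene end, 453 were gained and 327 lost. With occupancy of at least 2 of 3 in place of 3 of 3, 504 were gained (35.9% open in 3 of 3 K5SmoM2Sox9cKO libraries) and 454 lost. Lists of equal length gave 241 gained and 270 lost regions.

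Locus counts for K5SmoM2Sox9cKO against K5SmoM2 (53 higher, 59 lower) moved under several alternatives: they were 91 and 117 without the filter on low values, 13 and 19 with a −log10 q of at least 5, 14 and 14 with only those 2 groups in the fit, and 8 to 94 and 19 to 69 with 1 library left out. With the replicate block they were 33 and 32. Against WT (562 and 501) they were 383 to 562 and 317 to 490 with 1 library left out, and 246 were lower without scaling. With the 2 and 52 calls at loci with a switching region recomputed in turn, 613 values kept direction and side of the threshold, 188 kept direction only and 3 turned: with a −log10 q of at least 5, against WT, Cep112 had a log2 change of 0.034, Srsf12 0.40 and Gria4 -0.25. The cause of these differences was not tested.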
